A study of Homo sapiens with 6 samples.

Results

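The lysosomal enzymes that cut glycans, lipids, sulfate esters, proteins and nucleic acids, and the proteins that activate, modify or address them, were examined in DU145 cells that overexpress the transcription factor TFEB. The group was chosen by name, as 44 genes with the cathepsins left out. Of these, 34 had a row among the 10542 genes of the deposited table, and ACP2, AGA, ARSB, FUCA1, FUCA2, GALC, GLA, HGSNAT, MANBA and PPT1, 10 genes in all, were not analysed here. By substrate, glycogen and other glycans accounted for 10 of the 34 genes, sphingolipids and other lipids for 8 and sulfate esters for 6. Proteins and peptides accounted for 5, with GGH, which acts on folates, counted there, and nucleic acids for 2. A further 3 make the mannose 6-phosphate tag that addresses these enzymes to the lysosome.

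DU145 is an established human prostate cancer line with low TFEB, and the question was how raised TFEB changes its transcriptome. RNA-seq of polyadenylated RNA was available for 3 DU145-TFEB libraries, from cells stably infected with a lentivirus carrying TFEB, and for 3 DU145-vector libraries, from the same line infected with a blank lentivirus. Whether each line was a clone or a pool, and whether the libraries came from separate cultures, is not given in the sources used here, so p-values measure the spread between these libraries, which may be technical. RNA was measured in bulk, so fewer cells expressing a gene and less RNA per cell cannot be told apart.

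TFEB is a basic helix-loop-helix factor that binds an E-box with flanking bases, the CLEAR element, found near the start sites of many lysosomal genes. Soluble lysosomal enzymes are made in the endoplasmic reticulum, receive mannose 6-phosphate in the Golgi and are carried to the acidic lysosome, where each removes a particular bond. Inherited loss of single enzymes of this kind causes storage diseases, such as Pompe disease for GAA or Niemann-Pick disease for SMPD1.

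The E-box core CACGTG was searched in the promoters of the members, since it is the sequence that TFEB is known to read. RefSeq promoter windows (GRCh38.p14, 250 bases before to 50 after the annotated start) were matched by symbol for 26 of the 34 members, all except HEXA, NAGLU, ASAH1, PSAP, SGSH, ARSA, LGMN and GGH. The core stood in 9 of the 26 windows (34.6%), against 8.77% of 27305 promoters in the table and 12.6% of the 7619 promoters of listed genes. Since CACGTG is its own reverse complement, it was counted once for both strands. TCACGTG, which contains the core, was found on either strand in the same share of members (34.6%). Of all promoters 4.49% held it, and of those of listed genes 7.6%. GTCACGTG, which contains both, was found in 8 of the 26 (30.8%), against 2.93% of all promoters and 5.57% of those of listed genes. The members were chosen as lysosomal genes, and the CLEAR element is found near the start sites of many such genes. Their higher share is therefore not independent of how they were chosen. A match describes letters in a window and is not a measured binding site.

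The 30 bases around one core of each gene are shown 5′ to 3′ on the strand of the gene with the 6 bases of the core in capitals, because these are the letters that the 9 members share and the rule for choosing them did not use. They lie at chr9:137114724-137114753 for DPP7, chr17:80101538-80101567 for GAA, chr16:88856962-88856991 for GALNS, chr16:1351907-1351936 for GNPTG, chr16:5033938-5033967 for NAGPA, chr6:31862930-31862959 for NEU1, chr12:113358551-113358580 for PLBD2, chr17:56978092-56978121 for SCPEP1 and chr3:4467265-4467294 for SUMF1.
DPP7: cgtgaccccgccCACGTGacgggcgcccgc
GAA: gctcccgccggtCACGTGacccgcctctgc
GALNS: cgccccgcgagtCACGTGgccgtccaggcc
GNPTG: ggtccccgtggtCACGTGaccgtcacttca
NAGPA: tgggacttgagtCACGTGaggcgagcccac
NEU1: atgctgcgtgatCACGTGggaggagatgag
PLBD2: gcagagcgcagtCACGTGacccgggctgcg
SCPEP1: gtccgcctccgtCACGTGatggggcgccgg
SUMF1: ggagggctcagcCACGTGaccaaccgggtc
DPP7, GALNS, NAGPA, NEU1 and SUMF1 are on the minus strand and GAA, GNPTG, PLBD2 and SCPEP1 on the plus strand. DPP7, GAA, GALNS and GNPTG each held 2 cores, and in GAA, GALNS and GNPTG both carried the flanking bases of the longer word. In GAA, the enzyme that degrades glycogen, the cores began at -76 and -31 from the start. In GNPTG, a subunit of the phosphotransferase that makes the tag, they began at -12 and 5, on either side of the start. NEU1, the lysosomal sialidase, was the only one of the 9 genes without GTCACGTG.

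**Figure D1:**
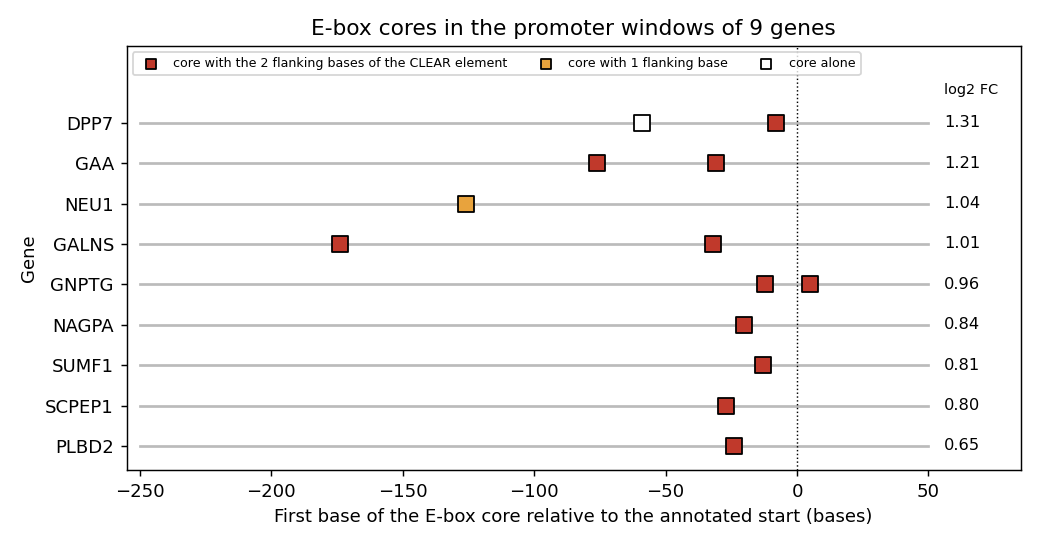
Position of each E-box core in the 9 promoter windows that held one, in bases from the annotated start, with the log2 fold change of the gene at the right. Colours mark how many flanking bases of the CLEAR element adjoin the core, and most cores lie within 100 bases of the start.

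Each table value is a normalized count, the reads of a gene divided by 1 size factor per library, and the 6 libraries held 13999961 to 16511477 reads on the listed genes. TFEB itself (ENSG00000112561, chr6:41683978-41736259, minus strand) was read at 6325, 6301 and 6036 normalized counts in DU145-TFEB and 127, 124 and 125 in DU145-vector. The labels and the overexpressed gene thus matched in all 6 libraries, at 49.6-fold. The fit with limma gave a log2 fold change of 5.62 (SE 0.0751, adjusted p = 3.18e-10). Of 8 markers of this epithelial line, KRT8, KRT18, KRT19 and VIM had a row. Their summed normalized count was 27129 to 36500 in DU145-TFEB and 45371 to 51250 in DU145-vector, with all 4 lower in mean. KRT19 overlapped between the groups, at 1451, 1884 and 1496 in DU145-TFEB and 2119, 1846 and 2305 in DU145-vector. The log2 fold changes were -0.78 for KRT18, -0.68 for KRT8, -0.38 for KRT19 and -0.75 for VIM. With the trend against GC content and length removed, as described below, they were -1.67, -1.58, -1.51 and -0.66 in the same order. The 7 leukocyte and endothelial markers had no row and were not analysed here. The part of the marker difference in the results was not tested.

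Most members with a row were higher in DU145-TFEB. Of the 34, 30 rose and 4 fell, the latter being GNPTAB, IDS, ASAH1 and GGH (limma, Benjamini-Hochberg adjusted p below 0.05 over all listed genes). Among all listed genes, 47.6% rose and 52.4% fell. The median log2 fold change was 0.78 for the members and -0.36 for the listed genes, a difference of 1.14. The rises were moderate, from 0.40 for GM2A to 1.70 for MAN2B1, which is 1.33-fold to 3.25-fold. The falls ran from -0.24 for GGH to -1.35 for GNPTAB. In each of the 34 members the values of the 2 groups did not overlap, which also held for 99.3% of the listed genes. Every listed gene has a deposited adjusted p below 0.05 from these same libraries, so neither the adjusted p nor the separation of the groups is independent evidence here. The counts and medians of members, also by substrate, cover only such genes and do not say how the 10 members without a row behaved. The exact two-sided permutation p was 0.1 for every member, the smallest that 3 against 3 libraries can give.

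Past both cutoffs used in the study, a log2 fold change beyond 1.5 in size with an adjusted p below 0.05, were MAN2B1 and DNASE2, 2 of 34 members (5.88%), both higher. Of all listed genes, 2.54% passed both cutoffs in the higher direction. In the lower direction 16.5% did, and 0 members. In the lower direction 0 members also passed both cutoffs by DESeq2 or edgeR, and 4 members fell at an adjusted p below 0.05 by each tool. With a cutoff of 1 in place of 1.5, 8 members passed in the higher direction, against 8.41% of listed genes, and 1 in the lower direction, against 31.1%.

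**Figure D2:**
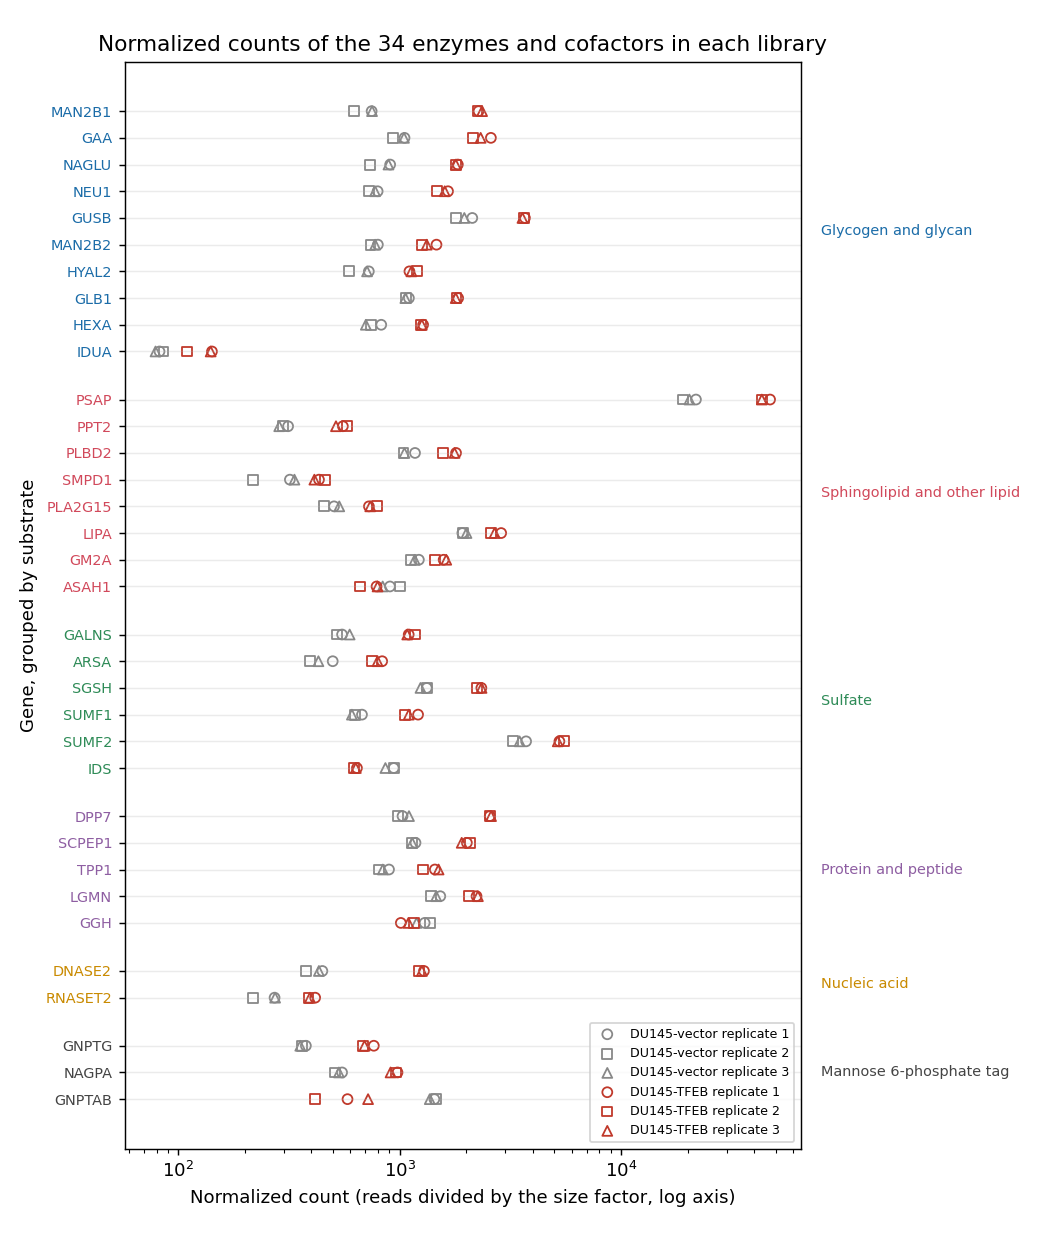
Normalized counts of the 34 members in each of the 6 libraries on a log axis, grouped by substrate, with DU145-TFEB and DU145-vector in different colours and replicates in different symbols. In every row the points of the 2 groups are apart, and only GNPTAB, IDS, ASAH1 and GGH have the DU145-vector points on the right.

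The fold change of a gene moved with the GC content of its transcript. Across the members, Spearman's rho between GC content and log2 fold change was 0.56 and Pearson's r was 0.61 (34 genes that share the same 6 libraries). Across 10537 listed genes with a known GC content rho was 0.74. The 30 members that rose had a GC content of 42.8% to 69.3% and the 4 that fell of 37.3% to 47.0%. The members' median of 55.0% lay above the 47.3% of all listed genes. Within each library, the 20% of listed genes richest in GC, set against the poorest 20% on the log2 scale relative to all 6 libraries, stood at 0.97, 1.31 and 0.69 in DU145-TFEB and at -0.90, -1.26 and -0.86 in DU145-vector. This split follows the groups and cannot be told apart from them.

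When the trend against GC content and length was removed from every library by loess, 16 members were higher, 6 were lower and 12 passed in neither direction. Of all listed genes, 15.2% were then higher and 54.5% lower. The members' median was then 0.15 and that of the listed genes was -0.32, a difference of 0.47. Above the median of the listed genes stood 29 of the 34 members, against 32 before. Past both cutoffs were 0 members, against 5.59% of listed genes in either direction, and 6 members were called in the opposite direction to before. The 6 were ASAH1 and IDS, now higher, and HYAL2, PLA2G15, SMPD1 and SUMF2, now lower. With the principal transcripts 13 members were higher, against 14.1% of listed genes, and 7 lower, against 54%. Past both cutoffs were 0 members, against 5.4% of listed genes. The loess takes out any difference that runs with GC content, whatever its origin, and which scale is nearer to the cells was not tested here. Among genes that the paper selected for PCR, it reports GAA and PSAP mRNA as higher in DU145-TFEB than in DU145-vector. With the trend removed GAA, at 0.15, did not pass and PSAP, at 0.29, was called higher.

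**Figure D3:**
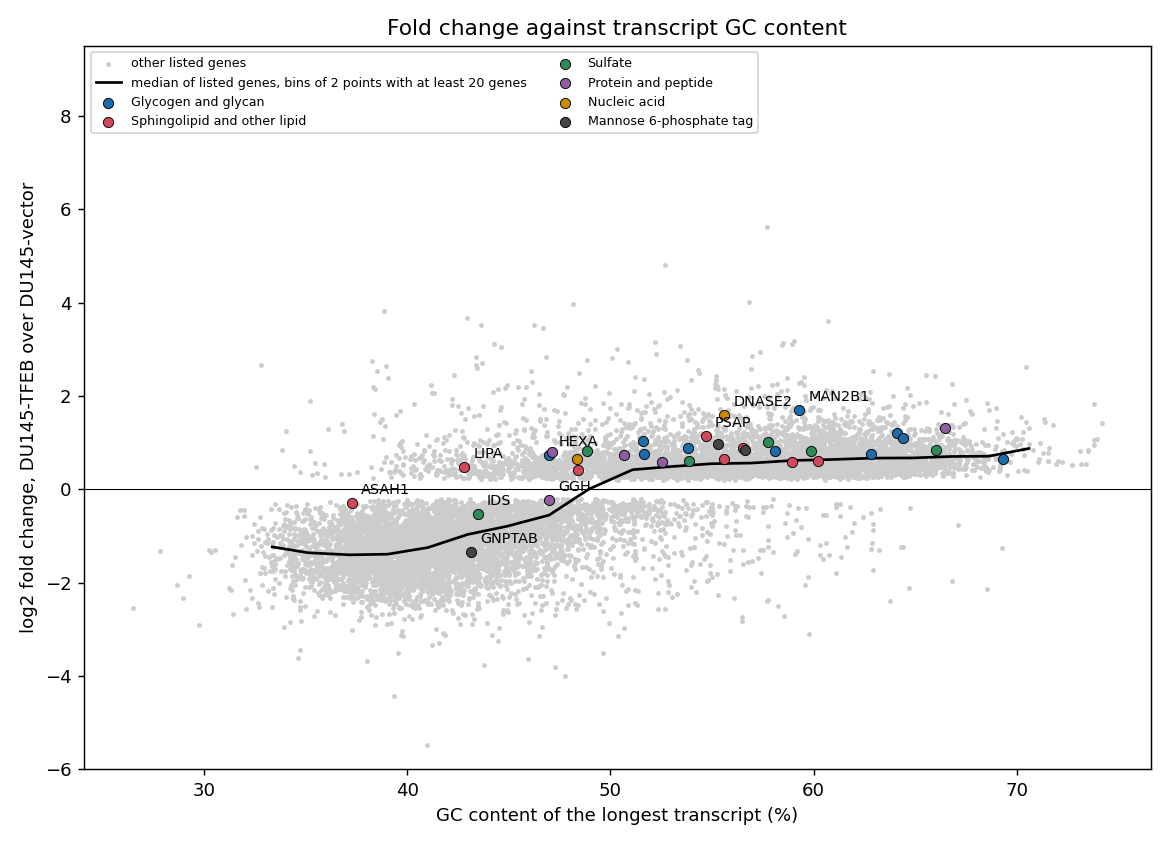
log2 fold change of DU145-TFEB over DU145-vector against the GC content of the longest transcript in percent, with the members coloured by substrate, the other listed genes in grey and the median of the listed genes as a line. The listed genes climb with GC content, and most members lie on or above the line.

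**Figure D4:**
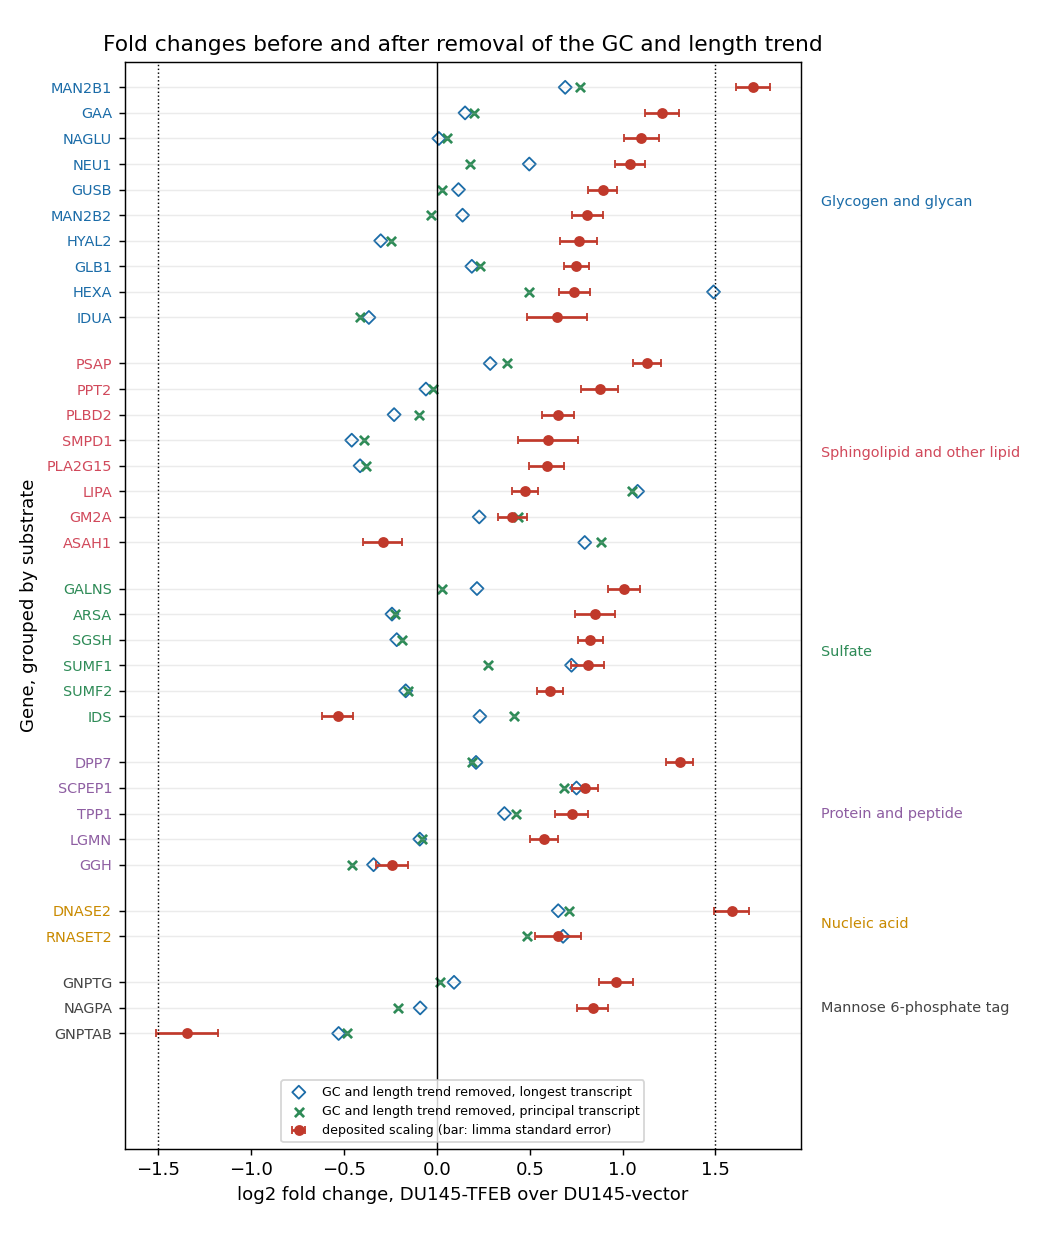
log2 fold change of each member as deposited (filled circles, bars are the standard error of limma) and after the GC and length trend was removed, with the longest transcript (diamonds) or the principal transcript (crosses). The dotted lines mark the cutoff of 1.5, which MAN2B1 and DNASE2 pass before the removal and 0 members after it.

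Of the 15 glycosidases and related enzymes of glycogen and glycans, 10 had a row and all 10 rose, with a median log2 fold change of 0.85. The group was led by the mannosidase MAN2B1, which removes mannose from N-linked glycans (ENSG00000104774, chr19:12646511-12666742, minus strand). Its normalized counts were 2274, 2250.3 and 2359 in DU145-TFEB and 748, 621 and 751 in DU145-vector. All DU145-TFEB libraries were well above all DU145-vector libraries, at 2294 ± 57.3 against 707 ± 74.0 (mean ± SD, n = 3 each). The log2 fold change was 1.70 (SE 0.0911, adjusted p = 2.30e-06), and 0.69 with the trend removed. MAN2B2, which trims the core of N-glycans, rose by 0.81.

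GAA, which frees glucose from glycogen, rose by 1.21 on the log2 scale (2.32-fold). NAGLU, which acts on heparan sulfate, rose by 1.10, GUSB, which removes glucuronic acid, by 0.89, and HYAL2, a hyaluronidase, by 0.76. IDUA, which removes iduronic acid from heparan and dermatan sulfate (ENSG00000127415, chr4:986997-1004506, plus strand), had the smallest rise of the glycan group and the lowest level. In DU145-TFEB it had 142, 109 and 140.2 normalized counts, and in DU145-vector 82.3, 85.8 and 79.0. The lowest DU145-TFEB library was above the highest DU145-vector library by less than the range within DU145-TFEB. The log2 fold change was 0.65 (SE 0.161, adjusted p = 0.00346). IDUA overlaps SLC26A1, so its few reads, at least 79 per library, cannot be given to it with certainty.

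GUSB (ENSG00000169919, chr7:65960684-65982314, minus strand) was among the 3 members with the most reads. The DU145-TFEB libraries gave 3684, 3652 and 3589.5 normalized counts, the DU145-vector libraries 2130.0, 1806 and 1961. The groups were far apart, and the replicates lay closer to each other in DU145-TFEB than in DU145-vector. The enzymes of gangliosides and sialylated glycans were also higher. NEU1 rose by 1.04, the beta-galactosidase GLB1 by 0.75 and HEXA, the alpha subunit of beta-hexosaminidase, by 0.74. With the trend removed, MAN2B1, NEU1, HEXA and GLB1 of the 10 were still higher and HYAL2 was lower. The other 5 passed in neither direction, with GAA at 0.15, NAGLU at 0.01, GUSB at 0.12, MAN2B2 at 0.14 and IDUA at -0.37. HEXA and NEU1 depended on the transcript used, which changed both the GC content and the length in the loess. HEXA was at 1.49 with the longest transcript and 0.50 with the principal transcript, called in both. NEU1 was at 0.50 with the longest and 0.18 with the principal transcript, where it did not pass (limma, adjusted p = 0.0999).

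Of the 11 members that act on sphingolipids and other lipids, 8 had a row, 7 rose and 1 fell, with a median of 0.60. PSAP, the precursor of the saposins that present sphingolipids to their hydrolases (ENSG00000197746, chr10:71816298-71851375, minus strand), was by far the most abundant member. Its normalized counts were 47162, 43453 and 43288 in DU145-TFEB and 21814, 19008 and 20382 in DU145-vector. Each DU145-TFEB library held more than any DU145-vector library, at 2.19-fold with a log2 fold change of 1.13 (SE 0.0755, adjusted p = 3.48e-06). PSAP alone took 0.320%, 0.289% and 0.295% of the reads on listed genes in DU145-TFEB and 0.151%, 0.133% and 0.143% in DU145-vector. The other 33 members together took 0.348%, 0.328% and 0.343% against 0.223%, 0.210% and 0.217%. Each DU145-TFEB library had the larger share both for PSAP and for the rest.

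The other activator, GM2A, which lifts the ganglioside GM2 for HEXA, rose by 0.40, the smallest rise among the members. LIPA, the acid lipase of cholesteryl esters, rose by 0.48, and SMPD1, the acid sphingomyelinase, by 0.60. The phospholipase PLA2G15 rose by 0.59, the phospholipase B-like protein PLBD2 by 0.65 and the thioesterase PPT2 by 0.88. The annotation places IFIT1, IFIT2 and IFIT3 within the span of LIPA, and PPT2 overlaps a read-through gene with EGFL8, so how their reads were shared is uncertain.

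ASAH1, the acid ceramidase that cleaves ceramide to sphingosine (ENSG00000104763, chr8:18055992-18084998, minus strand), fell slightly. In DU145-TFEB it had 787, 662 and 795 normalized counts, and in DU145-vector 905, 1004 and 839. The groups did not overlap, but the highest DU145-TFEB library and the lowest DU145-vector library were close. The log2 fold change was -0.29 (SE 0.105, adjusted p = 0.0213). The call was lost with the size factors of DESeq2 (-0.0519), TMM (-0.21) and quantile normalization (0.0273), and with the replicate block (adjusted p = 0.0562). After removal of the trend the value was 0.80, and ASAH1 was then called higher. At 37.3% its transcript had the lowest GC content of the members. With the trend removed, LIPA (1.08), PSAP (0.29) and GM2A (0.23) were also higher, whereas SMPD1 (-0.46) and PLA2G15 (-0.41) were lower.

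The sulfate group counts 7 genes, of which 6 had a row, namely 4 sulfatases and the 2 SUMF genes. Of these, 5 rose and 1 fell, with a median of 0.82. SUMF1 makes the formylglycine that sulfatases need for catalysis, and rose by 0.81. GALNS, which removes sulfate from keratan and chondroitin sulfate (ENSG00000141012, chr16:88813734-88856970, minus strand), rose most. The DU145-TFEB libraries gave 1099.6, 1171 and 1083 normalized counts, the DU145-vector libraries 549.9, 524 and 595. The groups were apart by several times their range, and the log2 fold change was 1.01 (SE 0.0862, adjusted p = 7.68e-06). ARSA, the sulfatase of sulfatide, rose by 0.85 and SGSH, that of heparan sulfate, by 0.83.

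SUMF2 (ENSG00000129103, chr7:56064002-56080670, plus strand), the paralog of SUMF1, was the second most abundant member by reads. Its normalized counts were 5272, 5521 and 5182 in DU145-TFEB and 3729, 3267 and 3485 in DU145-vector. All DU145-TFEB libraries were higher, with a log2 fold change of 0.61 (SE 0.0712, adjusted p = 3.98e-05). Per length, SUMF2 stood above SUMF1 in each library, by 7.37, 8.87 and 7.98 times in DU145-TFEB and 9.35, 8.79 and 9.70 times in DU145-vector. These ratios overlapped between the groups.

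IDS, the iduronate sulfatase that precedes IDUA in heparan and dermatan sulfate breakdown (ENSG00000010404, chrX:149476990-149521096, minus strand), went the other way. In DU145-TFEB it had 642, 619.7 and 634 normalized counts, and in DU145-vector 941, 945 and 863. All DU145-TFEB libraries were lower, with a log2 fold change of -0.53 (SE 0.0816, adjusted p = 0.000203). After removal of the trend IDS was called higher, at 0.23, as were SUMF1 at 0.73 and GALNS at 0.22, and SUMF2 was lower at -0.17. With the principal transcripts GALNS was at 0.03 and SUMF1 at 0.27.

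All 5 members of the protein and peptide group had a row, and the median was 0.73. The 4 peptidases rose, and the 1 member that fell was GGH, which acts on folates. DPP7, a dipeptidyl peptidase (ENSG00000176978, chr9:137110542-137115177, minus strand), led with normalized counts of 2555, 2567 and 2589.6 in DU145-TFEB and 1031, 984 and 1103 in DU145-vector. The DU145-TFEB libraries lay close together and far above the others, with a log2 fold change of 1.31 (SE 0.0724, adjusted p = 2.37e-06). It was 0.21 with the trend removed. The serine carboxypeptidase SCPEP1 rose by 0.80, the tripeptidyl peptidase TPP1 by 0.73 and LGMN, which cuts after asparagine, by 0.58. SCPEP1 was nearly the same with the trend removed, at 0.75, and TPP1 was at 0.36.

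GGH, which trims the glutamate tail of folates (ENSG00000137563, chr8:63015079-63039171, minus strand), fell slightly. The DU145-TFEB libraries gave 1013, 1160.2 and 1096 normalized counts, the DU145-vector libraries 1298, 1372 and 1193. The highest DU145-TFEB library was just under the lowest DU145-vector library. The log2 fold change was -0.24 (SE 0.0873, adjusted p = 0.022), and -0.34 with the trend removed. With the size factors of DESeq2 estimated over the listed genes the difference was 0.000178, and the call was also lost with TMM and quantile normalization (both negative in sign), but kept when scaled to the total over the listed genes (-0.29).

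Of 3 members that act on nucleic acids, 2 had a row and both rose, also with the trend removed. DNASE2, the acid DNase that digests DNA in lysosomes (ENSG00000105612, chr19:12875211-12881468, minus strand), had normalized counts of 1289, 1220.2 and 1262 in DU145-TFEB and 448, 376 and 432 in DU145-vector. The lowest DU145-TFEB library was more than double the highest DU145-vector library. The log2 fold change was 1.59 (SE 0.0930, adjusted p = 2.42e-06), and 0.65 with the trend removed. RNASET2, the acid RNase (ENSG00000026297, chr6:166929504-166957191, minus strand), had normalized counts of 416, 388 and 394 in DU145-TFEB and 272, 217 and 274 in DU145-vector. The groups were apart, with a log2 fold change of 0.65 (SE 0.122, adjusted p = 0.000703). It was 0.68 with the trend removed.

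The 3 tagging genes split. GNPTAB encodes the catalytic alpha and beta subunits of the phosphotransferase and GNPTG its gamma subunit, and NAGPA uncovers the tag in the next step. GNPTAB (ENSG00000111670, chr12:101745497-101830938, minus strand) had normalized counts of 582, 417 and 721 in DU145-TFEB and 1436, 1465 and 1369 in DU145-vector. All DU145-TFEB libraries were below all DU145-vector libraries, but they spread widely, with replicate 2 lowest and replicate 3 highest. The log2 fold change was -1.35 (SE 0.168, adjusted p = 5.98e-05), the largest fall among the members, and -0.53 with the trend removed. Without DU145-TFEB replicate 3 it was -1.53, past both cutoffs.

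GNPTG (ENSG00000090581, chr16:1351923-1364113, plus strand) had normalized counts of 765, 684 and 695 in DU145-TFEB and 377, 363 and 356 in DU145-vector. It rose by 0.96 on the log2 scale (SE 0.0921, adjusted p = 1.33e-05), with the groups far apart. Its value after removal of the trend, 0.09, did not pass. NAGPA (ENSG00000103174, chr16:5024844-5034141, minus strand) rose by 0.84, and by the same removal was at -0.09. With the principal transcript NAGPA was at -0.21 and was called lower (limma, adjusted p = 0.0373).

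Per gene length, GNPTG stood below GNPTAB in DU145-vector, at 0.625, 0.589 and 0.618 of its level, and above it in DU145-TFEB, at 3.13, 3.90 and 2.29 times its level. The ratio was 4.97-fold higher in DU145-TFEB, a log2 difference of 2.31 (exact two-sided permutation test, p = 0.1, the smallest possible with 3 against 3). The transcripts differ in GC content, at 55.3% for GNPTG and 43.2% for GNPTAB. The part of that difference in the ratio was not tested.

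**Figure D5:**
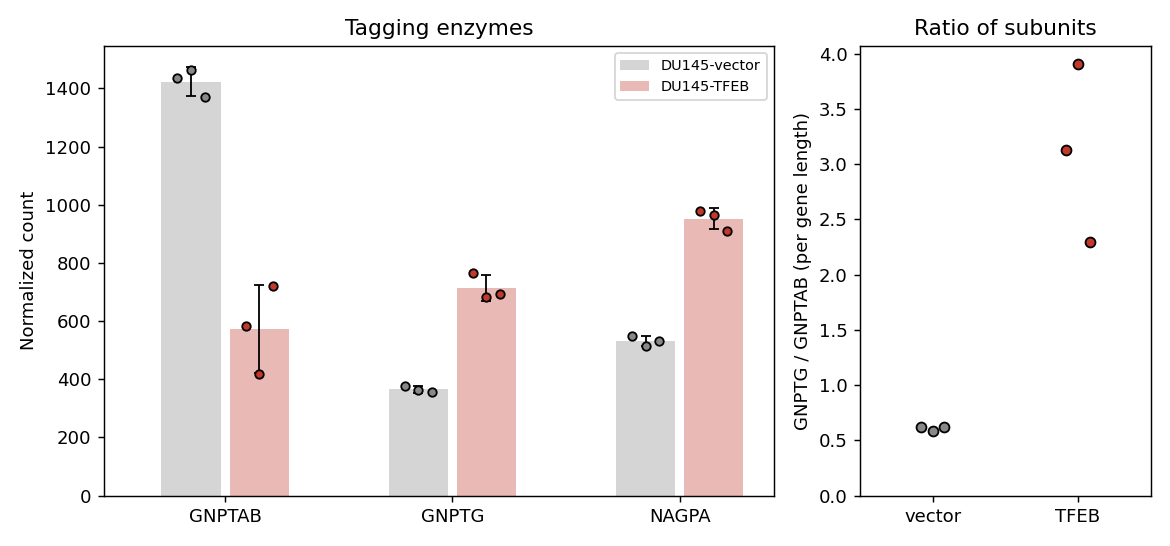
Left, normalized counts of GNPTAB, GNPTG and NAGPA in each library (points) with group means (bars). Right, the ratio of GNPTG to GNPTAB per gene length in each library, which is below 1 in DU145-vector and above 2 in DU145-TFEB. Neither panel has the GC and length trend removed.

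Levels differed widely between members. Per kilobase of the deposited gene length, the DU145-vector mean was 6299 normalized counts for PSAP, 852 for SUMF2, 492 for GUSB, 411 for GGH and 398 for LIPA. At the other end were RNASET2 with 33.3 and IDUA with 20.6. HEXA and ASAH1, whose deposited lengths of 12611 and 15378 bases are the longest among the members, stood at 60.1 and 59.6.

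Set beside the E-boxes described above, all 9 members with a core rose, with a median log2 fold change of 0.96, from 0.65 for PLBD2 to 1.31 for DPP7. Of the 17 whose window held none, 15 rose and 2 fell, with a median of 0.65, and the 8 without a matched window had a median of 0.78. With the trend removed the medians were 0.21 with a core and 0.14 without. MAN2B1 and DNASE2, the members that rose most, held none in their windows, nor did GNPTAB, which says only that these letters are not in this stretch. No difference between the sets was tested.

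The medians of the other lysosomal lists all lay below the 0.78 of the members on the deposited scale. With the trend removed this order did not hold, since other soluble enzymes stood at 0.30 and delivery receptors at 0.49, against 0.15 for the members. With the principal transcripts those values were 0.26, 0.52 and 0.0408, and the cathepsins were at 0.0807. These differences were not tested. Of 24 other soluble enzymes and activators 15 had a row, 13 rose and 2 fell, with a median of 0.41 on the log2 scale, and the carboxypeptidase CPVL was highest at 1.22. Of 13 cathepsins 11 had a row, 8 rose and 3 fell, with a median of 0.59. The cysteine protease CTSB rose past both cutoffs at 1.58, and CTSS fell past them at -3.50. CTSS was near the floor, at 16.8, 4.55 and 1.04 normalized counts in DU145-TFEB and 68.6, 64.4 and 63 in DU145-vector. Of 15 lysosomal membrane proteins 13 had a row, 9 rose and 4 fell, with a median of 0.47, from -1.67 for MFSD8, past both cutoffs, to 1.39 for CLN3. CLN3 had few reads, with a mean normalized count of 27.6 in DU145-TFEB and 10.2 in DU145-vector. Of 17 subunits of the proton pump that acidifies the lysosome 13 had a row, 6 rose and 7 fell, with a median of -0.22, from -1.49 for ATP6V1C1 to 0.82 for ATP6AP1.

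Of the 4 delivery receptors, all with a row, 2 rose and 2 fell. The 2 that rose are the mannose 6-phosphate receptors, IGF2R at 0.75 and M6PR at 0.62. The 2 that fell are SCARB2, which carries glucocerebrosidase without the tag, at -0.54, and the sorting receptor SORT1 at -0.34. M6PR and SORT1 were named after their values were seen. With the trend removed IGF2R was at 1.29, M6PR at 0.52 and SCARB2 at 0.46, all called higher. SORT1 was at 0.12, which did not pass. With the principal transcripts SORT1 was at 0.28 (limma, adjusted p = 0.00152), and all 4 receptors were called higher.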

How the data were processed

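The RNA-seq data comprised 3 libraries of DU145-TFEB and 3 of DU145-vector, grouped by the sample labels. Columns named NC were taken as the vector group. The submitters' processing notes name CASAVA 1.8, HISAT2 2.1.0, edgeR and the build GRCh38 (hg38), and the paper's methods name DESeq2. The counting program, annotation and strand setting are not given in the sources used here. Gene positions equal those of GENCODE 29 for all 10542 genes. The authors deposited a normalized signal per library, in which dividing out 1 size factor (0.950 to 1.10) returned whole reads for 100% of values within 0.01. They also deposited group means, fold changes and p-values, which were not used except to count that all 10542 adjusted p-values are below 0.05. Gene lengths are the authors'.

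log2(normalized count + 1) was fitted with limma 3.58.1 (mean-variance trend, R 4.3.3, two-sided, no block), adjusted over 10542 genes. The design named edgeR for raw counts, and the table holds normalized values. A fold change on this scale understates the change of low genes. DESeq2 1.42.0 and edgeR 4.0.16 on recovered reads, other pseudocounts (0.5 and 5), a filter of 10 reads, other scalings, the replicate block, removal of the GC and length trend by loess (span 0.5, longest GENCODE 29 transcript) and each library left out were alternatives. The longest transcript gave only the GC content of that loess, and the length was the deposited gene length. Removal with the GC content and length of the principal transcript, marked for 26 members and else the longest, was added after seeing the data. The fits were tested on simulated counts. The members and lists were chosen with earlier results of these data known. Every member is named, with values per library for those past both cutoffs, the highest and lowest of each substrate group and the 3 with the most reads. Of other lists, the members past both cutoffs and the highest and lowest are named, except 1 gene that is not reported here. Of the 34 members, 26 overlap another gene, 19 of them on the opposite strand and 17 a protein-coding gene, and without a stated strand setting their reads cannot be told apart. Counting error is small, as each member other than IDUA had at least 223 reads in every library.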

Additional observations from a re-analysis of the deposited data

How the results depend on the processing

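The 30 rises were kept in number under both other pseudocounts, the filter, DESeq2, edgeR, every other scaling, the replicate block and each library left out, and for all 34 members the direction and call were unchanged with the pseudocounts, the filter, DESeq2 and edgeR. Scaling moved the median of all listed genes from -0.36 to -0.12 with DESeq2 size factors estimated over them, -0.28 with TMM, -0.40 with the total and -0.03 with quantile normalization. The members' median was 1.02, 0.86, 0.73 and 1.01 in the same order, and the number that fell was 2 with the DESeq2 size factors, TMM and quantile normalization. GGH was then at 0.000178 with the DESeq2 size factors and ASAH1 at 0.0273 with quantile normalization, and DPP7 passed both cutoffs with the DESeq2 size factors. With a cutoff of 1 in place of 1.5, 9 members passed, 8 higher and 1 lower, against 8.41% and 31.1% of listed genes.

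With the GC and length trend removed 16 members were higher, 0 passed both cutoffs and the median was 0.15. Opposite in sign were SGSH (-0.22), NAGPA (-0.0898), PPT2 (-0.0589), SUMF2 (-0.17), ARSA (-0.24), HYAL2 (-0.30), PLBD2 (-0.23), LGMN (-0.0917), IDS (0.23), PLA2G15 (-0.41), SMPD1 (-0.46), IDUA (-0.37), ASAH1 (0.80) and the median of the tagging genes (-0.0898). The same values held with the replicate block, where 15 members were higher, 0 passed both cutoffs and the median was 0.15. With the principal transcripts 13 were higher, 7 lower and 0 past both cutoffs, against 14.1%, 54% and 5.4% of listed genes, the median was 0.0408, and opposite in sign were SGSH (-0.19), NAGPA (-0.21), MAN2B2 (-0.0327), PPT2 (-0.0203), SUMF2 (-0.15), ARSA (-0.23), HYAL2 (-0.24), PLBD2 (-0.0967), LGMN (-0.0799), IDS (0.42), PLA2G15 (-0.38), SMPD1 (-0.39), IDUA (-0.42), ASAH1 (0.88) and the medians of the sulfate group (-0.0645) and the tagging genes (-0.21). The cause of these changes was not tested.

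With the replicate block and no other change, 30 members were higher, 3 lower and 2 past both cutoffs, with the call of ASAH1 lost (adjusted p = 0.0562). Whether the numbers pair the libraries is not given. The correlations of same-numbered libraries were -0.018, -0.246 and -0.141, and those of the other pairs ran from -0.149 to 0.248. They rest on deviations from means of 3 libraries and cannot decide it. With each library left out in turn, the number that fell was 2 to 4 and the median 0.75 to 0.82. It was 2 without DU145-vector replicate 1 and without DU145-vector replicate 2. Past both cutoffs were 2 to 3 members, 3 without DU145-TFEB replicate 3, where GNPTAB was added. ASAH1 (-0.35 to -0.21) and GGH (-0.29 to -0.19) kept their sign and each lost the call in 3 of the 6 fits.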

Other observations

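MAN2B1 and DNASE2, the members past both cutoffs, lie 208469 bases apart on chromosome 19. The 11 other listed genes that lie between or overlap them all rose as well, from 0.84 to 1.79 with a median of 1.16 (log2 fold change), whereas over the 839 listed genes of chromosome 19 the median was 0.63, with 649 higher and 190 lower. Past both cutoffs were 2 of the 11, the transcription factor JUNB at 1.79 and RNASEH2A, a subunit of RNase H2, at 1.53. The lowest was WDR83 at 0.84. The 11 genes had a median GC content of 59.9%, against 58.9% for the chromosome. With the trend against GC content and length removed their median was 0.21, against -0.27 for the chromosome. This stretch was looked at after the values of both members were seen, and no difference was tested.

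Within each group the libraries lay close together over the members as a whole. The median of the 34 members against the DU145-vector mean was 0.79, 0.74 and 0.77 in DU145-TFEB and 0.06, -0.06 and -0.000845 in DU145-vector. Replicate 2 of DU145-TFEB was lowest in its group for 21 of the 34 members and replicate 2 of DU145-vector for 22. These were also the libraries with the widest gap between GC-rich and GC-poor genes in their groups, at 1.31 and -1.26. The 2 gaps are opposite in sign, whereas replicate 2 was most often lowest in both groups. Whether the gaps and the low values are related was not tested.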
